A study of Rattus norvegicus with 19 samples.

Results

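The 6 genes described here encode receptors for noradrenaline and adrenaline and the enzymes that make cyclic AMP in heart muscle: Adrb1, Adra1a, Adra1b, Adra1d, Adcy5 and Adcy6. They were chosen by symbol, as every probe set annotated to 1 of these names, and were found on 8 of the 20826 probe sets that name 1 gene. That is 6 of 14217 genes, and their level on all 19 arrays is given over 5 groups. The samples were left ventricles of male Dahl salt-sensitive rats (Harlan SS/Hsd), a strain that becomes hypertensive on a salty diet. Every group, the baseline group included, ate food with 6% NaCl from 6 weeks of age, and rats on a normal diet were not analysed here. The combination group (n = 4) received 90 ug of enalapril a day by pump and 200 ng of paricalcitol per injection, 3 times a week, for 4 weeks. The enalapril group (n = 3) received the pump and vehicle injections, the paricalcitol group (n = 4) the paricalcitol injections, and the vehicle group (n = 4) vehicle alone, all for 4 weeks and to 15 weeks of age. The baseline group (n = 4) was taken at 11 weeks of age, after 5 weeks of the diet and before any treatment. Enalapril inhibits the angiotensin-converting enzyme, and paricalcitol activates the vitamin D receptor.

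In heart muscle, noradrenaline from sympathetic nerves binds beta-adrenergic receptors, of which the beta-1 receptor (Adrb1) is the main one. The receptor activates the stimulatory G protein, and this in turn activates adenylyl cyclases, chiefly types 5 and 6 (Adcy5 and Adcy6) in the ventricle. The cyclic AMP they make activates protein kinase A, which raises the rate and force of contraction. The alpha-1 receptors (Adra1a, Adra1b and Adra1d) couple to another G protein that activates phospholipase C and protein kinase C, and are known for their part in cardiac growth and in the contraction of vessels. Prolonged stimulation is known to reduce the number of beta receptors at the cell surface.

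RNA with an integrity number above 9 was labelled from 5 ug of total RNA and hybridised to Affymetrix expression arrays, 1 array per sample. Array medians ran from 43.6 to 72.6 intensity units, and 16% to 18.2% of the deposited values on an array were below 0, as left by a background subtraction. Levels below are log2 of the quantile-normalized intensity plus 16, so that a value of 4 is the floor, the level of an intensity at or below 0. A difference is in log2 units and positive where the first group was higher, and its standard error (SE) comes from a limma fit over all 14217 genes. The number of arrays limits the precision. The labels do not state outright that each array is a separate rat. The p-values weigh a difference against the spread between these samples, which may not be the spread between rats. The sample numbers in the descriptions run in 1 block per group, and a cohort effect and a group effect cannot be told apart. In whole tissue, fewer cells of a type and less RNA per cell cannot be told apart.

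The promoters of Adcy5 and Adra1b are shown because these members had the largest differences relative to their SE among those above 0 on every array. RefSeq's table for GRCr8 gave 300 bases, from 250 before to 50 after the annotated start, for 4 of the 6 members (Adrb1, Adra1d, Adra1b and Adcy5). Capitals mark the GC box GGGCGG, read on either strand. The Adcy5 window is chr11:79123294-79123593 on the minus strand. The Adra1b window is chr10:28814298-28814597 on the minus strand, and its start lies inside the span of the annotated gene.
Adcy5: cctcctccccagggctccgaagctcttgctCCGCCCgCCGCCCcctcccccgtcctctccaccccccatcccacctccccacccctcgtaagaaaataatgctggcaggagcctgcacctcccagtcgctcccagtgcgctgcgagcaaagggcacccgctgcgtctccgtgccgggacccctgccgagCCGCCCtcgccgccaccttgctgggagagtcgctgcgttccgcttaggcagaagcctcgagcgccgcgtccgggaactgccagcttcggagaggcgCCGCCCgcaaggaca
Adra1b: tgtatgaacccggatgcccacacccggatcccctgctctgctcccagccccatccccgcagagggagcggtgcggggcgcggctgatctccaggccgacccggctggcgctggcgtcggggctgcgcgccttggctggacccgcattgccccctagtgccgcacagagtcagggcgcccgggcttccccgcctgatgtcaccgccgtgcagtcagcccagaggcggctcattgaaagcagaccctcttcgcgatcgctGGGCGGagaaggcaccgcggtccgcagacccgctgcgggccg
The GC box occurred 4 times in the Adcy5 window and 1 time in the Adra1b window, and it was found in 33.1% of 33469 rat promoters of that length. It had 0 matches in the Adrb1 and Adra1d windows. The cyclic AMP response element TGACGTCA (1.83% of promoters), the single vitamin D receptor site AGGTCA (16.2%) and its direct repeat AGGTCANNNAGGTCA (0.0239%), which contains that site, had 0 matches in all 4 windows. The element's core TGACG (21.2% of promoters), which the full element also contains, had 1 match in Adrb1 and 0 in the other 3. All motifs were searched on both strands, and a match describes letters only.

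No member passed the test in any comparison. By limma with a Benjamini-Hochberg adjusted p under 0.05, 0 of 6 members passed in each of the 10 comparisons. Adra1d, at the floor on every array, could not pass or be free of overlap in any of them. The smallest adjusted p of a member was 0.252. Over all genes the share that passed was 0.0844% in vehicle against baseline, 0.0141% in paricalcitol against vehicle, 0.0% in enalapril against vehicle and 0.00703% in the combination against vehicle. It was 0.0% in the combination against enalapril and against paricalcitol, 0.0281% in paricalcitol against baseline, 0.0141% in enalapril against baseline, 0.162% in the combination against baseline and 0.0% in the interaction of both drugs. These shares depended on the processing: over the alternatives the number of genes that passed ran from 0 to 160 in vehicle against baseline (12 as reported, 160 with array weights), from 0 to 71 in paricalcitol against vehicle (2 as reported, 71 with arrays centred on their median) and from 1 to 70 in the combination against baseline (23 as reported, 70 with array weights).

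At an unadjusted p under 0.05 in limma, 1 of 6 members was below the threshold in each of 5 comparisons. This was Adra1a in vehicle against baseline, where 9.2% of all genes were, and Adcy5 in paricalcitol against vehicle (9.64% of all genes). It was Adcy5 again in paricalcitol against baseline (7.76%) and in the combination against baseline (10.3%), and Adra1b in the combination against enalapril (5.3%). In the other 5 comparisons 0 of 6 members were below it, where the background was 5.64% in enalapril against vehicle, 7.68% in the combination against vehicle, 9.05% in the combination against paricalcitol, 8.06% in enalapril against baseline and 6.94% in the interaction. The median difference of the 5 members other than Adra1d lay between -0.12 and 0.18 in the 10 comparisons, and that of all genes was 0.00 in each.

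**Figure D1:**
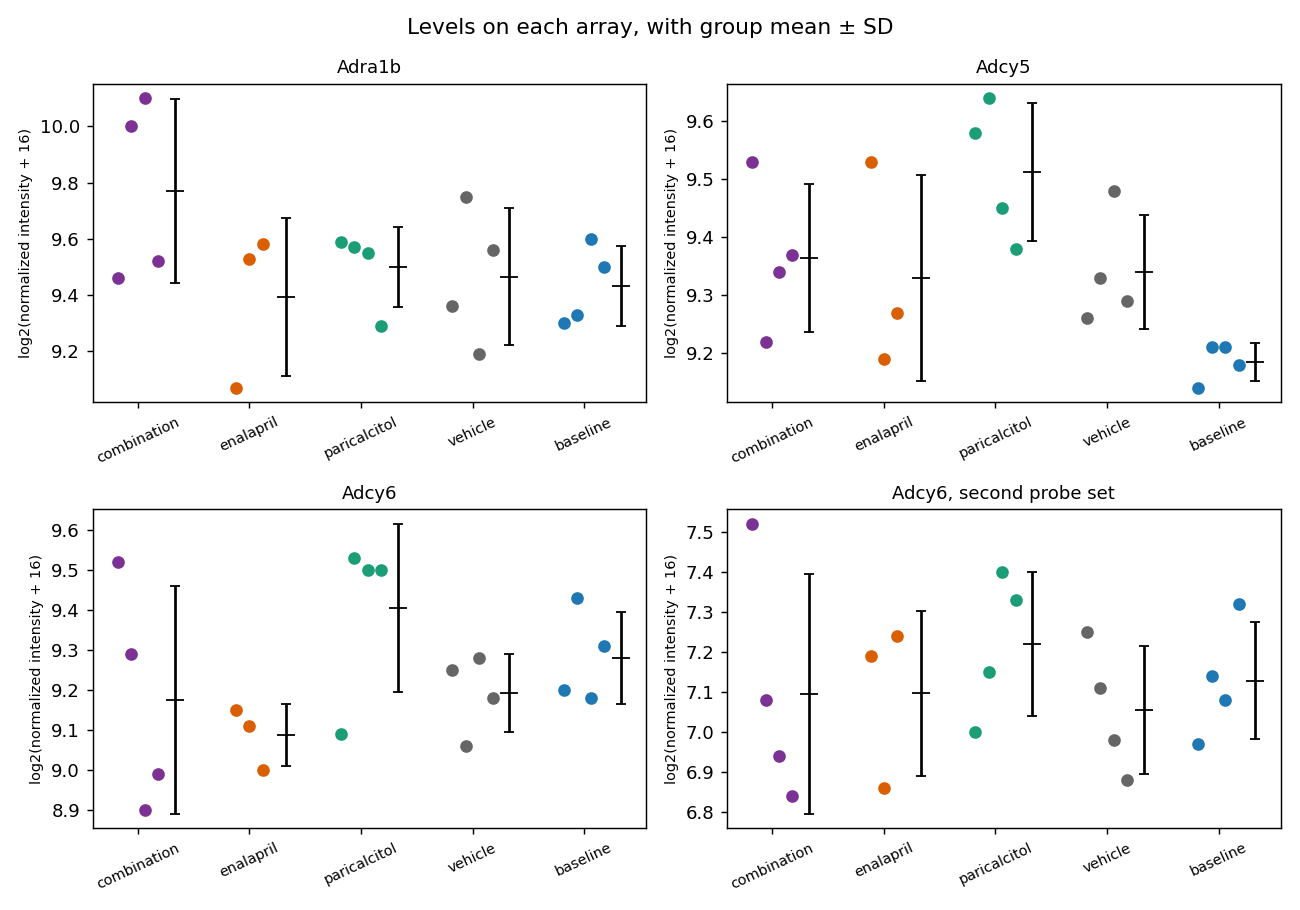
Log2 level (quantile-normalized intensity plus 16) of Adra1b, Adcy5 and both probe sets of Adcy6 on each array, with the mean and SD per group to the right of its points; the groups run from the combination at the left to baseline at the right. The 4 paricalcitol arrays of Adcy5 lie between 9.38 and 9.64, and the 4 baseline arrays between 9.14 and 9.21.

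Adcy5 was the member with the smallest p. This cyclase, inhibited by calcium, is 1 of the main forms in the ventricle (GRCr8, chr11:78976861-79123343). Its level was 9.53, 9.22, 9.34 and 9.37 on the combination arrays, 9.53, 9.19 and 9.27 on the enalapril arrays, 9.58, 9.64, 9.45 and 9.38 on the paricalcitol arrays, 9.26, 9.33, 9.48 and 9.29 on the vehicle arrays, and 9.14, 9.21, 9.21 and 9.18 on the baseline arrays. On this normalized level all 4 baseline arrays were low and close together, and lay below every array of the paricalcitol, vehicle and combination groups. The paricalcitol and vehicle arrays overlapped, and 1 enalapril array fell within the baseline range.

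By mean level the order of the groups for Adcy5 was paricalcitol (9.52 ± 0.12), combination (9.37 ± 0.13), vehicle (9.34 ± 0.10), enalapril (9.33 ± 0.18, n = 3) and baseline (9.18 ± 0.03; SD, n = 4 where not given). The arrays of each group overlapped those of its neighbours in this order, and no neighbouring pair passed the test. The difference of paricalcitol minus baseline was 0.33 (SE 0.08, 95% interval 0.16 to 0.50, adjusted p = 0.252 by limma). The difference of paricalcitol minus vehicle was 0.18 (SE 0.08, 0.01 to 0.35, adjusted p = 0.493). Adcy5 did not overlap between vehicle and baseline, with a difference of 0.16 (SE 0.08, -0.01 to 0.33, adjusted p = 0.581), where 7.77% of all genes did not overlap. It did not overlap between paricalcitol and baseline either, where 3.71% of all genes did not, or between the combination and baseline, with a difference of 0.18 (SE 0.08, adjusted p = 0.442), where 5.58% did not. These 3 comparisons share the baseline arrays. In 4 comparisons 0 of 6 members were free of overlap, and the share of all genes free of it was 5.04% in paricalcitol against vehicle, 4.23% in the combination against vehicle, 4.94% in the combination against enalapril and 3.43% in the combination against paricalcitol. Enalapril minus vehicle was -0.01 (95% interval -0.20 to 0.17) and the combination minus vehicle 0.03 (-0.14 to 0.20).

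The size of the Adcy5 differences and the lack of overlap with baseline depended on the scaling. Deposited intensities were 586.9 to 680.0 at baseline, 507.9 to 672.9 in vehicle, 581.4 to 794.8 in paricalcitol and 508.1 to 861.7 in the combination. On that scale each of these groups overlapped baseline. The deposited intensities without equalisation between arrays gave 0.10 for paricalcitol minus baseline, with a median over all genes of -0.17, and -0.07 for vehicle minus baseline, with a median of -0.20. A further probe set of Adcy5 had an intensity between -14.5 and 17.6 on the 19 arrays and was at the floor on 9 of them. Its correlation with the first over the arrays was r = -0.31 and rho = -0.40, and averaging both gave -0.04 for paricalcitol minus baseline. With arrays centred on their median, paricalcitol minus vehicle was 0.06, and on the deposited scale the combination minus baseline was 0.01. Red cell markers (5 of 12 listed were measured) were lower in 5 of 5 against baseline in all 4 later groups, with medians of -0.50 in the combination, -0.31 in enalapril, -0.48 in paricalcitol and -0.31 in vehicle. With the red cell score as a covariate the paricalcitol minus baseline difference of Adcy5 was 0.34.

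**Figure D2:**
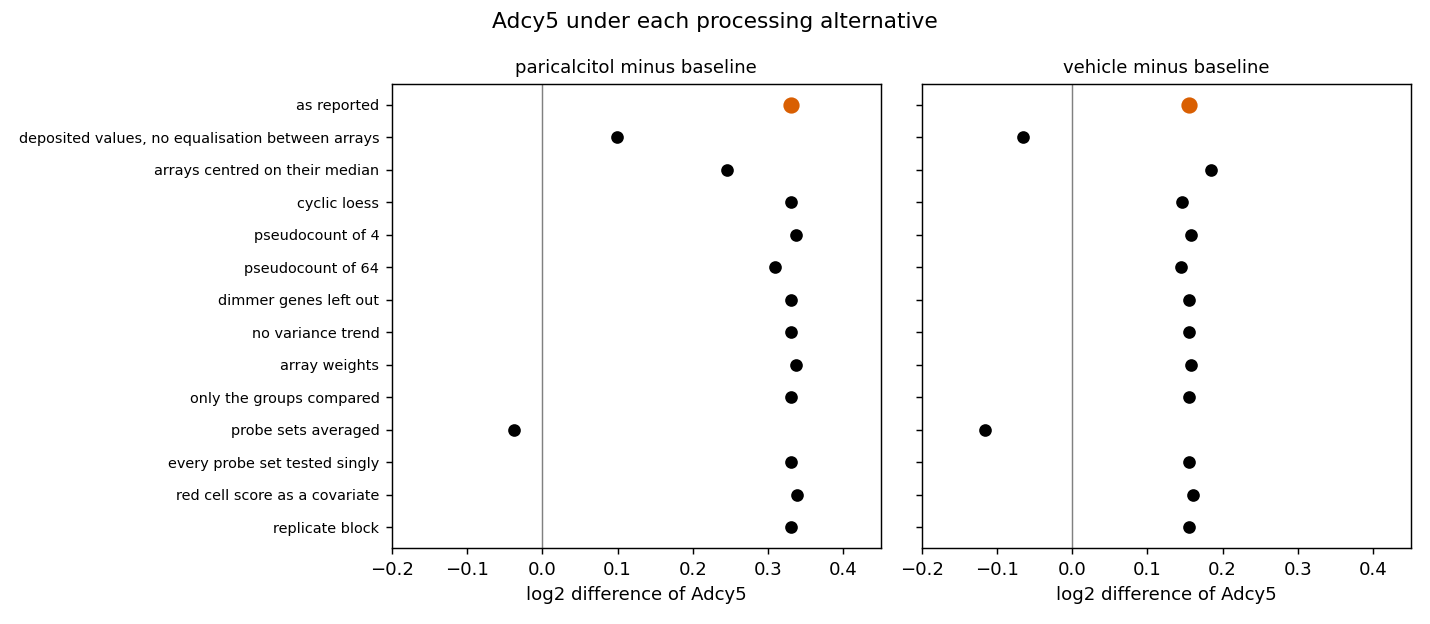
Log2 difference of Adcy5 (horizontal axis) in paricalcitol minus baseline and in vehicle minus baseline under each processing alternative, with the reported value as the larger point at the top. In the first panel the values lie between 0.10 and 0.34 except where both probe sets were averaged (-0.04), and in the second -0.07 and -0.12 lie below 0.

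Adcy6, the other main ventricular cyclase and also inhibited by calcium, ran from 8.90 to 9.53 over the 19 arrays (chr7:131621860-131642923). Its level was 9.52, 9.29, 8.90 and 8.99 on the combination arrays, 9.15, 9.11 and 9.00 on the enalapril arrays, 9.09, 9.53, 9.50 and 9.50 on the paricalcitol arrays, 9.25, 9.06, 9.28 and 9.18 on the vehicle arrays, and 9.20, 9.43, 9.18 and 9.31 on the baseline arrays. Of the paricalcitol arrays, 3 were high and 1 was low, at the level of the vehicle arrays, and the combination arrays spanned nearly the whole range. The enalapril arrays all lay below the baseline arrays, and the other pairs of groups overlapped.

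By mean level the order for Adcy6 was paricalcitol (9.41 ± 0.21), baseline (9.28 ± 0.12), vehicle (9.19 ± 0.10), combination (9.18 ± 0.29) and enalapril (9.09 ± 0.08). Neighbours in this order overlapped and none differed beyond its spread. Paricalcitol minus vehicle was 0.21 (SE 0.13, adjusted p = 0.626 by limma), and the combination minus paricalcitol was -0.23 (SE 0.13, adjusted p = 0.626). Enalapril minus baseline was -0.19 (SE 0.14, adjusted p = 0.805 by limma), the 1 pair without overlap, where 8.89% of all genes did not overlap. The highest enalapril level was 9.15 and the lowest baseline level 9.18. Their deposited intensities overlapped, with 535.2 to 590.9 in enalapril and 582.2 to 709.0 at baseline. Without the 4 arrays with a red cell score under -1 (2 of the combination and 2 of paricalcitol), a choice made after seeing the data, paricalcitol minus vehicle was 0.10 and the combination minus paricalcitol -0.04. Without combination replicate 3 the second of these was -0.14, and with arrays centred on their median they were 0.10 and -0.15. Other choices made them larger. Without paricalcitol replicate 1, the low array of that group, they were 0.321 and -0.336. Without combination replicate 1 the second was -0.345. A second probe set of Adcy6 gave 0.16 (SE 0.15) for paricalcitol minus vehicle, -0.12 (SE 0.15) for the combination minus paricalcitol and -0.03 (SE 0.16) for enalapril minus baseline. On it enalapril (6.86 to 7.24) and baseline (6.97 to 7.32) overlapped. The 2 probe sets had r = 0.65 and rho = 0.62 over the 19 arrays, as a description. Some lists of cell markers differed in the same directions as Adcy6, and others did not. In paricalcitol against vehicle, 12 of 12 smooth muscle and pericyte markers (median 0.26), 9 of 10 endothelial markers (median 0.10) and 9 of 10 macrophage markers (median 0.13) were higher. So were 7 of 9 fibroblast markers (median 0.10), 6 of 9 cardiomyocyte markers (median 0.01) and 49.3% of all genes, but 0 of 5 red cell markers (median -0.17). Of sympathetic nerve and Schwann cell markers 5 of 9 were higher (median 0.09), and of adipocyte markers 3 of 6 (median 0.17). In the combination against paricalcitol, 11 of 12 smooth muscle and pericyte (median -0.38), 9 of 10 endothelial (median -0.07) and 8 of 10 macrophage markers (median -0.09) were lower. There 5 of 9 cardiomyocyte markers (median 0.00) and 4 of 9 fibroblast markers (median 0.01) were lower, and 48.2% of all genes were higher. Also lower were 8 of 9 nerve and Schwann cell markers (median -0.15), 3 of 5 red cell markers (median 0.00) and 3 of 6 adipocyte markers (median 0.00). In enalapril against baseline, 9 of 12 smooth muscle and pericyte (median -0.03), 8 of 10 endothelial (median -0.05) and 9 of 9 fibroblast markers (median -0.37) were lower. Higher there were 7 of 10 macrophage markers (median 0.03), 5 of 9 cardiomyocyte markers (median 0.01) and 47.4% of all genes. Nerve and Schwann cell markers were lower in 5 of 9 (median -0.12), red cell markers in 5 of 5 (median -0.31) and adipocyte markers in 3 of 6 (median -0.02). The summed intensity of the smooth muscle and pericyte markers was 14047 to 17681 in the combination, 14873 to 17556 in enalapril, 16018 to 17787 in paricalcitol, 15309 to 15900 in vehicle and 16514 to 17288 at baseline. The part of these cells in the Adcy6 values was not tested.

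Adra1b, an alpha-1 receptor of heart muscle cells, had its highest group mean in the combination (chr10:28756461-28874831). Its level was 9.46, 10, 10.10 and 9.52 on the combination arrays, 9.07, 9.53 and 9.58 on the enalapril arrays, 9.59, 9.57, 9.55 and 9.29 on the paricalcitol arrays, 9.36, 9.75, 9.19 and 9.56 on the vehicle arrays, and 9.30, 9.33, 9.60 and 9.50 on the baseline arrays. On 2 combination arrays it was above every other array of the study, and the other 2 combination arrays lay within the range of each other group. No pair of groups was free of overlap.

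By mean level the order for Adra1b was combination (9.77 ± 0.33), paricalcitol (9.50 ± 0.14), vehicle (9.47 ± 0.24), baseline (9.43 ± 0.14) and enalapril (9.39 ± 0.28). Neighbours in this order overlapped, and no pair passed the test. The combination minus enalapril was 0.38 (SE 0.18, 95% interval 0.01 to 0.75, adjusted p = 0.908 by limma), the combination minus baseline 0.34 (SE 0.16, adjusted p = 0.488) and the combination minus vehicle 0.30 (adjusted p = 0.707). The interaction of both drugs was 0.35 (SE 0.24, adjusted p = 0.815). The red cell score was -1.75 and -1.33 on the 2 high combination arrays (replicates 2 and 3), while the other 2 combination arrays scored 0.86 and 0.91. The 4 arrays of low red cell score left out for Adcy6 include both high combination arrays. Without these 4 arrays the combination minus enalapril was 0.10 and the combination minus baseline 0.06. With the score as a covariate these differences were 0.34 and 0.26.

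**Figure D3:**
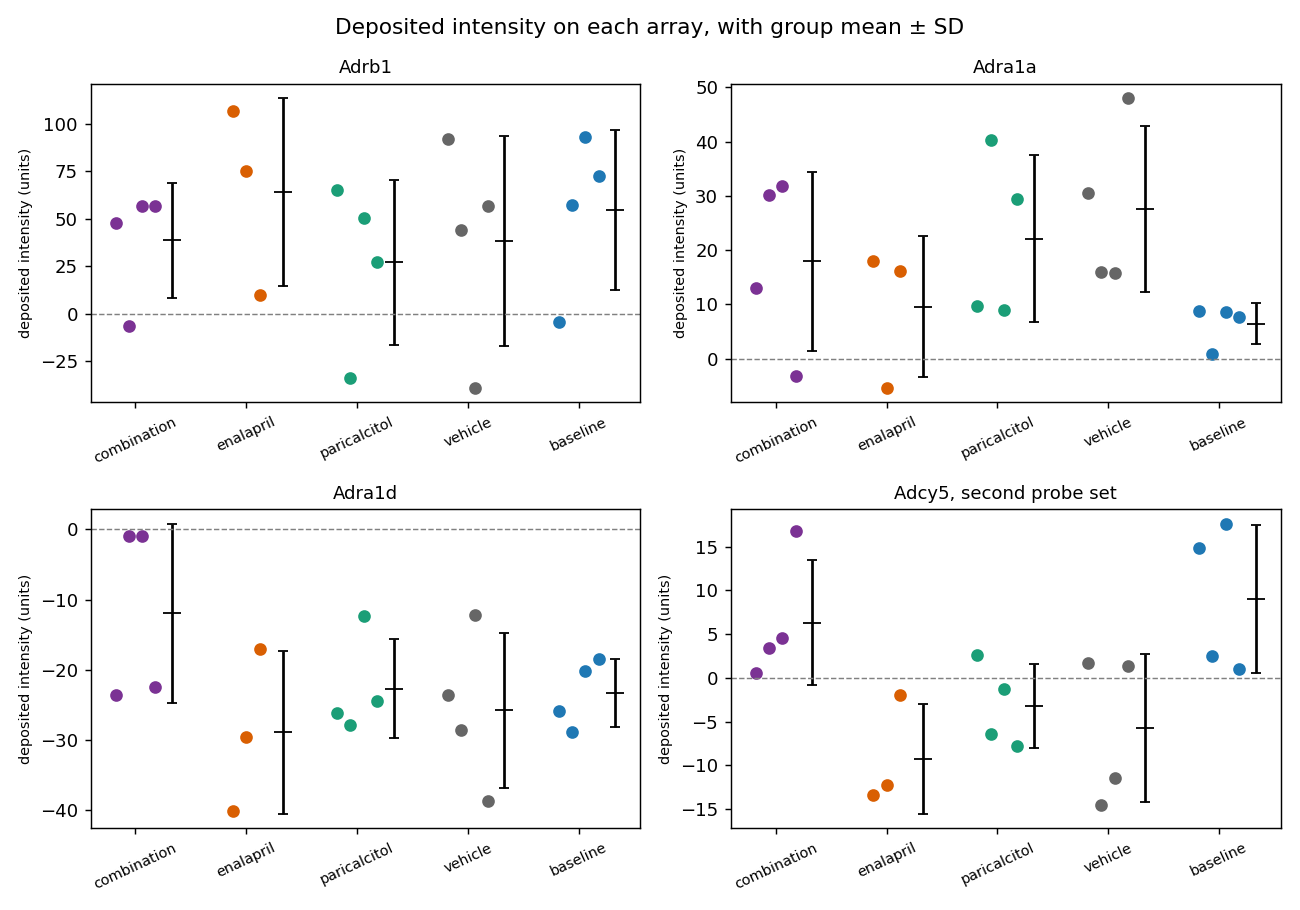
Deposited intensity of Adrb1, Adra1a, Adra1d and the second Adcy5 probe set on each array, with the mean and SD per group; the dashed line marks 0. Adra1d lies below 0 on 19 of 19 arrays, and Adrb1 is below 0 on 1 array each of the combination, paricalcitol, vehicle and baseline groups.

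Adra1a, the alpha-1A receptor, was near the floor (chr15:45005648-45111416). Its deposited intensity was 13.0, 30.1, 31.8 and -3.2 on the combination arrays, 18, -5.4 and 16.1 on the enalapril arrays, 9.7, 40.2, 8.9 and 29.5 on the paricalcitol arrays, 30.5, 15.9, 15.8 and 48.0 on the vehicle arrays, and 8.7, 0.8, 8.6 and 7.7 on the baseline arrays. The 4 baseline values were low, and each vehicle value was above each of them, while combination and enalapril arrays reached below 0. After normalization the log2 level was 5.03 ± 0.82 in the combination, 4.65 ± 0.57 in enalapril, 5.16 ± 0.57 in paricalcitol, 5.48 ± 0.44 in vehicle and 4.39 ± 0.27 at baseline. In that order of levels, vehicle, paricalcitol, combination, enalapril and baseline, no neighbouring pair differed beyond its spread.

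Adra1a in vehicle minus baseline was 1.09 (SE 0.39, 95% interval 0.27 to 1.91, adjusted p = 0.355 by limma), and these groups did not overlap. Between them 7.77% of all genes did not overlap. Enalapril minus vehicle was -0.83 (SE 0.42, adjusted p = 0.892 by limma), without overlap on the normalized level only. Between these groups 8.53% of all genes did not overlap. The highest enalapril level was 5.02 and the lowest vehicle level 5.06, while the deposited intensities of enalapril and vehicle overlapped. Paricalcitol minus baseline was 0.77 (SE 0.39, adjusted p = 0.677 by limma), also without overlap, where 3.71% of all genes did not overlap. The lowest paricalcitol level was 4.64 and the highest baseline level 4.59, both near the floor. These comparisons share vehicle or baseline arrays. The size depended on the pseudocount: vehicle minus baseline was 1.92 with a pseudocount of 4 and 0.44 with 64. In vehicle against baseline, 8 of 9 fibroblast markers (median -0.25), 9 of 10 macrophage markers (median -0.23), 5 of 5 red cell markers (median -0.31) and 5 of 6 adipocyte markers (median -0.31) were lower. So were 8 of 12 smooth muscle and pericyte markers (median -0.19, smallest adjusted p 0.0768 in limma) and 7 of 10 endothelial markers (median -0.12). Of cardiomyocyte markers 4 of 9 were lower (median 0.01), as were 4 of 9 nerve and Schwann cell markers (median 0.09). Of all genes 47.1% were higher. The part of these cells in the Adra1a values was not tested.

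Adrb1, the main cardiac beta receptor, varied widely between arrays of 1 group (chr1:265777103-265780114). Its deposited intensity was 47.9, -6.4, 56.7 and 56.4 on the combination arrays, 106.8, 75.3 and 10.1 on the enalapril arrays, 64.9, -33.7, 50.2 and 27.2 on the paricalcitol arrays, 91.9, 44.0, -39.0 and 56.4 on the vehicle arrays, and -4.4, 57.2, 93.1 and 72.3 on the baseline arrays. An array below 0 occurred in every group but enalapril, and all groups overlapped. The log2 level was 5.63 ± 1.11 in the combination, 6.02 ± 1.18 in enalapril, 5.48 ± 1.12 in paricalcitol, 5.79 ± 1.27 in vehicle and 5.82 ± 1.24 at baseline. The order was enalapril, baseline, vehicle, combination and paricalcitol, and no neighbours differed beyond their spread. Over the 9 pairs of groups the differences ran from -0.39 to 0.23 with SEs of 0.81 to 0.87, and their 95% intervals reached from -2.25 to 2.09. Each bound is that of a single comparison, and these intervals were the widest of the 5 members with any value above the floor. Adra1d, the alpha-1D receptor known from arteries, was below 0 on all 19 arrays (-40.1 to -0.9, median -23.6; chr3:139246333-139262331), and no difference is given for it.

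**Figure D4:**
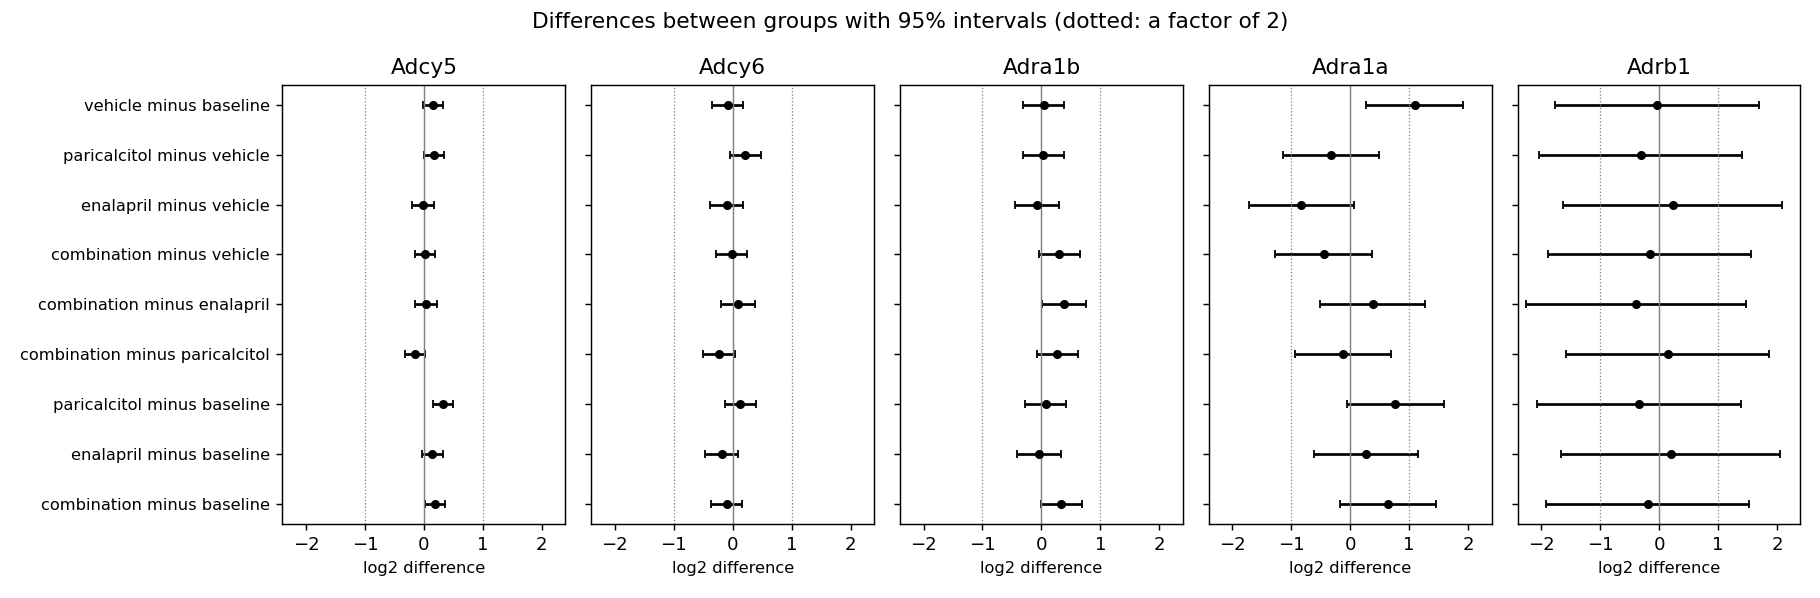
Log2 difference of 5 members in each of the 9 comparisons between 2 groups, as points with 95% intervals from limma; dotted lines mark a ratio of 2 in either direction. The intervals of Adcy5, Adcy6 and Adra1b lie inside the dotted lines, and those of Adra1a and Adrb1 reach beyond them.

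The intervals of the members differed in width. For Adcy5 the differences over the 9 pairs of groups ran from -0.15 to 0.33, and the widest 95% bounds were ratios of 0.80 and 1.42. For Adcy6 the differences ran from -0.23 to 0.21, with bounds of 0.71 and 1.39. For Adra1b they ran from -0.08 to 0.38, with bounds of 0.73 and 1.69. For Adra1a they ran from -0.83 to 1.09, and no ratio is given because their size depended on the pseudocount. These ratios are of intensity plus 16, and each bound is that of a single comparison. The interaction of both drugs was -0.14 (SE 0.12, adjusted p = 0.873 by limma) for Adcy5, -0.13 (adjusted p = 0.946) for Adcy6 and 0.71 (SE 0.57, adjusted p = 0.853) for Adra1a.

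Cardiomyocyte markers, 9 of 10 measured, summed to 135402 to 142985 intensity units in the combination, 130221 to 137357 in enalapril, 131640 to 137972 in paricalcitol, 129861 to 136421 in vehicle and 130486 to 138003 at baseline. Markers of sympathetic nerve and Schwann cells, 9 of 12 measured, summed to 631 to 1176 in the combination, 757 to 1161 in enalapril, 710 to 1366 in paricalcitol, 634 to 1143 in vehicle and 678 to 844 at baseline.

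The genes whose level was most like a member's over the 19 arrays, by Pearson's r among 7108 genes, are given as a description. For Adcy5 they were Kptn (r = 0.81, rho = 0.82) and Tsr2 (r = 0.78, rho = 0.79), and without the 2 arrays farthest from the median of Adcy5 r was 0.71 and 0.69. For Adcy6 they were Rrad (r = 0.70, rho = 0.64, 0.59 without the 2 arrays), a small GTPase that restrains the L-type calcium channel, and Prkd3 (r = 0.70, rho = 0.66, 0.68 without them). For Adra1b they were Trabd (r = 0.82, rho = 0.71) and Snrnp27 (r = 0.77, rho = 0.71), which came to 0.65 and 0.58 without the 2 arrays. For Adra1a they were Nfs1 (r = 0.76, rho = 0.77) and Acacb (r = 0.73, rho = 0.70), and for Adrb1 Coq4 (r = 0.74, rho = 0.80) and Atg2b (r = 0.71, rho = 0.61). Levels on an array share its preparation and depth.

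The rest of the pathway was described by 123 genes in 9 lists, and 0 of 123 passed in limma in each of the 10 comparisons. At an unadjusted p under 0.05 there were 17 of 123 in vehicle against baseline and in the combination against baseline (13.8% each), 14 in paricalcitol against vehicle and in enalapril against baseline (11.4% each), 11 in the combination against paricalcitol (8.94%) and 10 in the combination against vehicle and in paricalcitol against baseline (8.13% each). There were 8 in the combination against enalapril (6.5%), 7 in enalapril against vehicle (5.69%) and 6 in the interaction (4.88%). The shares of all genes at that threshold are those given with the members.

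Of the other receptors and cyclases, 4 receptors and 6 cyclases were measured. Their median differences lay between -0.17 and 0.35 and between -0.28 and 0.15 over the comparisons. Adcy4, a cyclase stimulated by G protein beta-gamma subunits, had 6.85 ± 0.17 in vehicle and 7.24 ± 0.13 at baseline, a difference of -0.39 (SE 0.12, adjusted p = 0.249 by limma). Adra2a, an alpha-2 receptor known to restrain noradrenaline release, had an interaction of -1.13 (SE 0.44, adjusted p = 0.615), with 4.82 in the combination, 5.22 in enalapril, 5.54 in paricalcitol and 4.81 in vehicle, near the floor. The interaction was -1.66 with a pseudocount of 4, -0.51 with 64 and -0.57 with probe sets averaged. Adcy4 ran from -0.65 to -0.29 over the alternatives.

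The G protein subunits (22 genes) had medians from -0.14 to 0.04. Gnas, the stimulatory alpha subunit, had a difference of -0.14 in paricalcitol minus vehicle (SE 0.05, adjusted p = 0.365 by limma) that turned to 0.30 with probe sets averaged, and Gnai2, an inhibitory alpha subunit, of -0.26 in the combination minus vehicle (SE 0.09, adjusted p = 0.541; -0.34 to -0.13 over the alternatives). The receptor kinases, arrestins and RGS proteins (15 genes) had medians from -0.12 to 0.08. Rgs4, which speeds the shut-off of G proteins, had 7.65 ± 0.20 in the combination and 6.62 ± 0.52 in enalapril, a difference of 1.03 (SE 0.26, adjusted p = 0.736). Rgs5, of the same family and a pericyte marker, had 9.79 ± 0.11 in vehicle and 10.43 ± 0.15 at baseline, a difference of -0.64 (SE 0.16, adjusted p = 0.177). Grk5, a receptor kinase, had -0.58 in the combination minus vehicle (SE 0.29, adjusted p = 0.682), and Grk2, which phosphorylates active beta receptors, 0.17 in paricalcitol minus baseline (SE 0.14, adjusted p = 0.829). Over the alternatives Grk5 ran from -0.84 to -0.05, the value nearest 0 being that without the 4 arrays of low red cell score. Grk2 was 0.07 without baseline replicate 2 and -0.02 on the deposited scale.

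Among the genes downstream of cyclic AMP, protein kinase A and its partners (21 genes) had medians from -0.07 to 0.19. Against baseline, the means were higher for 16 of 21 in the combination (48.7% of all genes), 14 of 21 in enalapril (47.4%), 15 of 21 in paricalcitol (47.5%) and 16 of 21 in vehicle (47.1%), with 0 of 21 past the test. These 4 comparisons share the baseline arrays. Pkia, an inhibitor of the kinase, had 12.62 ± 0.05 in the combination and 12.43 ± 0.07 at baseline, a difference of 0.19 (SE 0.05, adjusted p = 0.0949 by limma). Prkaca, its catalytic subunit, had 11.24 ± 0.21 in vehicle and 10.90 ± 0.08 at baseline, a difference of 0.35 (SE 0.11, adjusted p = 0.256). The phosphodiesterases, which break down cyclic AMP (14 genes), had medians from -0.10 to 0.05. Pde10a, which breaks down both cyclic AMP and cyclic GMP, had 4.44 ± 0.58 in enalapril (n = 3) and 6.04 ± 0.34 at baseline, a difference of -1.60 (SE 0.36, adjusted p = 0.223), with 1 enalapril array at the floor. Its difference was -1.48 in paricalcitol minus baseline (adjusted p = 0.199) and its interaction 1.85 (SE 0.49, adjusted p = 0.416). Over the alternatives the enalapril difference ran from -2.68 to -0.70. Pde4d, of another cyclic AMP family, had an interaction of 0.68 (SE 0.27, adjusted p = 0.619), and Pde3a had 0.47 in vehicle minus baseline (SE 0.21, adjusted p = 0.522; 0.24 to 0.63 over the alternatives). The cardiac substrates of the kinase (10 genes) had medians from -0.06 to 0.05. Phospholamban (Pln), which restrains the calcium pump, had 0.03 in paricalcitol minus vehicle (SE 0.05, adjusted p = 0.955), and Rrad 0.40 (SE 0.16, adjusted p = 0.418). Pln was below 0 under 5 alternatives, from -0.16 to -0.02, and Rrad ran from 0.26 to 0.50. On the deposited scale Pkia in the combination minus baseline was 0.04, and Prkaca in vehicle minus baseline 0.19. The phospholipase C and protein kinase C genes (19) had medians from -0.11 to 0.00.

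The genes that make, take up and break down catecholamines (12) had medians from -0.13 to 0.20. Maoa, the mitochondrial enzyme that breaks down noradrenaline, had the smallest adjusted p of the 123 genes. Its level was 12.59 to 12.90 on the 4 paricalcitol arrays and 13.30 to 13.60 on the 4 vehicle arrays, without overlap. Of all genes 5.04% did not overlap between these groups. The level was 12.49 to 13.07 at baseline, 12.81 to 13.23 in enalapril and 12.47 to 13.17 in the combination. Every vehicle array thus lay above every array of the other groups. Of all genes 7.77% did not overlap between vehicle and baseline, 8.53% between enalapril and vehicle and 4.23% between the combination and vehicle. These comparisons share the vehicle arrays, and the share of genes with 1 group above all others was not counted. Vehicle minus baseline was 0.685, enalapril minus vehicle -0.396 and the combination minus vehicle -0.502 (adjusted p = 0.132, 0.852 and 0.483 by limma). The difference of paricalcitol minus vehicle was -0.78 (SE 0.16, adjusted p = 0.0805 by limma). Th, the rate-limiting enzyme of their synthesis, had 6.79 ± 0.19 in paricalcitol and 6.37 ± 0.09 at baseline, a difference of 0.42 (SE 0.11, adjusted p = 0.335). Slc6a2, the noradrenaline transporter of nerve endings, had -0.63 in the combination minus vehicle (SE 0.29, adjusted p = 0.633; -1.09 to -0.27 over the alternatives). Th ran from 0.25 to 0.48. Maoa in paricalcitol minus vehicle ran from -0.95 to -0.74, with an adjusted p of 0.0147 in limma at its smallest.

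**Figure D5:**
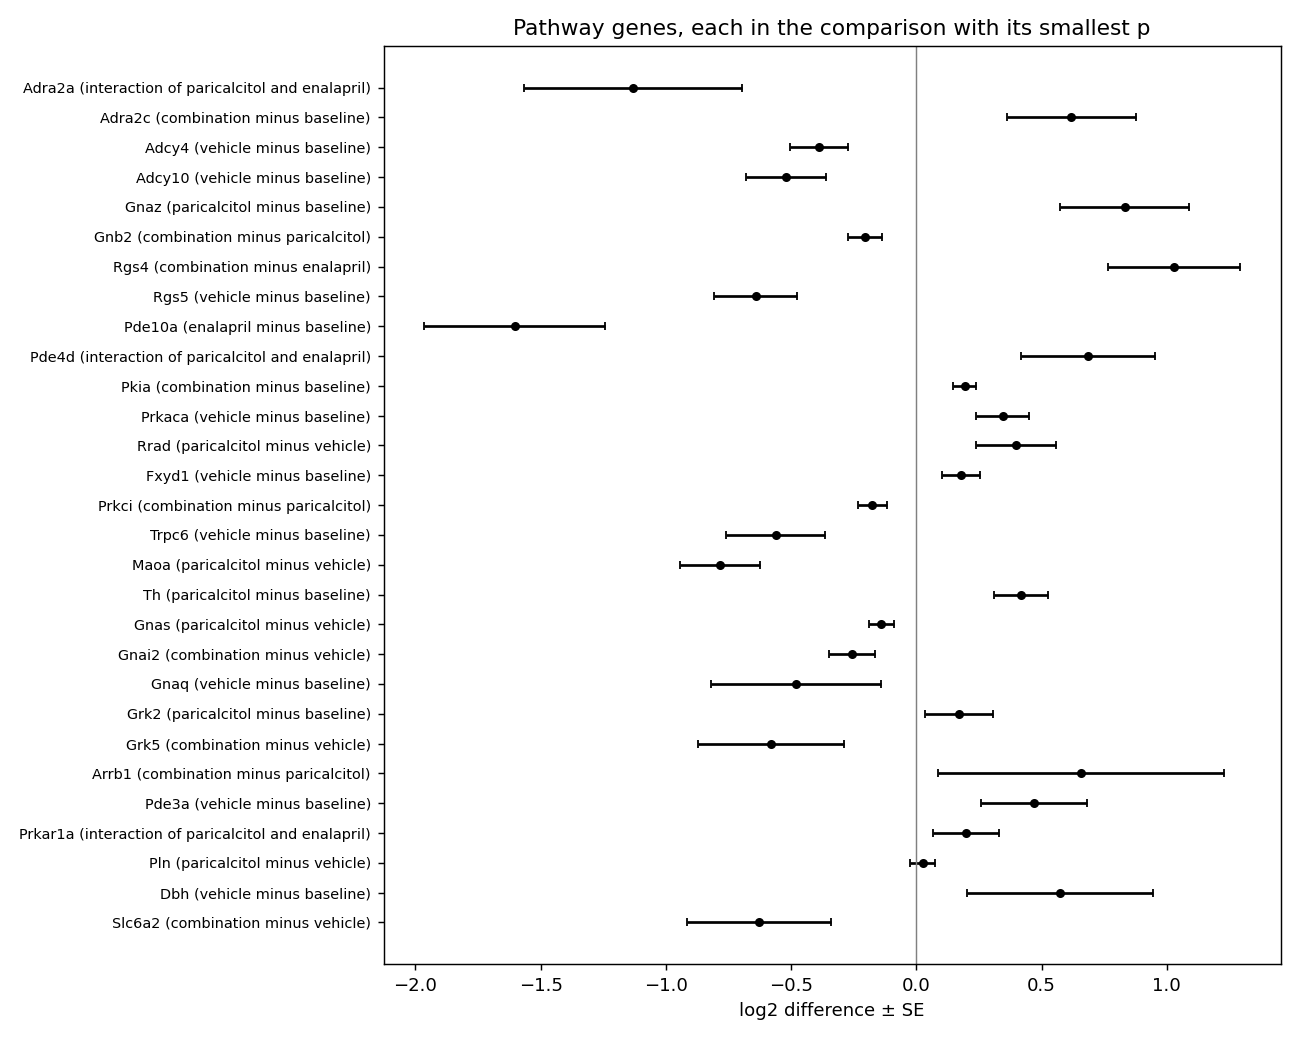
Log2 difference with its SE for the 29 pathway genes named by the rule or a fixed panel, each in the comparison in which its p was smallest, named beside the gene. None of the adjusted p-values is under 0.05, the smallest being 0.0805 for Maoa, and the vehicle arrays of Adcy10 were all at the floor.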

How the data were processed

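Left ventricular RNA of 19 samples was measured on Affymetrix arrays. The authors deposited a linear intensity for each probe set on each array; the software behind it is not given in the sources used here. From these, all 31099 probe sets were quantile normalized together in R 4.3.3, negative values became 0, and a pseudocount of 16 was added before taking log2. For each of 14217 genes the probe set of highest mean was used, from the 20826 that name 1 gene; 436 name several genes and 9837 none or are controls. Of these, 20758 matched a RefSeq gene by Entrez identifier. A group-means model was fitted to all 19 arrays with limma 3.58.1 (trend on level, Benjamini-Hochberg over all genes, threshold 0.05) for 10 comparisons. Tested on simulated data for vehicle against baseline over 14217 genes, the fit found 86.8% of shifts of 1 and 47% of shifts of 0.5, with 3.34% of calls false. The simulated shifts were put only into genes with a mean level above the median of all genes, with independent normal noise. Adrb1, Adra1a and Adra1d were not above that median, so these shares do not apply to them.

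The members and gene lists were chosen with earlier results of these data known. Named pathway genes were the 2 with the smallest p of each list and a fixed panel, each in the comparison with its smallest p. Like genes were the 2 with the highest Pearson's r to each member. Deviations of equally numbered arrays were all correlated above 0.1 in 1 of 10 pairs of groups, the combination and paricalcitol (0.31 to 0.56). Arrays of unequal number were not correlated, so these values cannot show whether the numbers pair samples of these groups. The labels state no pairing. In both groups replicates 2 and 3 were the arrays with a red cell score under -1. The Results give SEs and p-values from fits without pairing. Numbers entered only the replicate block, which was fitted over all groups. Promoters and coordinates are RefSeq's for GRCr8. Alternatives were other scalings, pseudocounts, filters, probe set rules, weights, a red cell covariate, a replicate block and each array left out.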

Additional observations from a re-analysis of the deposited data

Results flagged for a closer look

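In 148 groups of 4 arrays, the highest or lowest array was checked for a gap to the next that was large against the range of the group, and 13 were found. Chance flags about 1 in 20 such groups, a rate that does not cover groups with arrays at the floor. The gap is given as a share of the range.

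Among the members, 1 paricalcitol array was low for Adcy6 (9.09, with the others at 9.50, 9.50 and 9.53, share 0.927) and another for Adra1b (9.29, with the others at 9.55 to 9.59, share 0.856). The second probe set of Adcy5 had 1 paricalcitol array at 4.29 and 3 at the floor of 4.00 (share 1.0, which the floor fixes). Among the pathway genes, the combination group had 1 array each that stood apart as low for Rgs5 (9.64, share 0.835) and Maoa (12.47, share 0.903), and 1 each as high for Gnaq (5.59, share 0.84), Pln (14.18, share 0.889) and Adcy10 (4.65, share 1.0, again with 3 arrays at the floor). For Gnaz, 1 paricalcitol array was low (7.14, share 0.905). The vehicle group had 1 high array for Prkaca (11.55, share 0.865) and 1 low array for Dbh (5.93, share 0.956). The baseline group had 1 high array for Adra2c (4.82, share 0.849) and for Pln (14.14, share 0.843).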

How the results depend on the processing

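Of the 6 members, 0 passed in limma in any of 221 alternative counts over the 10 comparisons. Over 39 differences and 851 alternative values, 839 kept their direction and 12, in 6 of the differences, did not. With both probe sets averaged, Adcy5 was -0.038 in paricalcitol minus baseline and -0.116 in vehicle minus baseline, Gnas 0.300 and Pln -0.156 in paricalcitol minus vehicle. On the deposited scale Adcy5 was -0.066 in vehicle minus baseline, Grk2 -0.024 in paricalcitol minus baseline and Pln -0.022 in paricalcitol minus vehicle; arrays centred on their median gave Pln -0.127. Leaving out each array in turn gave Adrb1 a range of -0.947 to 0.153 in paricalcitol minus baseline and Pln a range of -0.015 to 0.044, and without the 4 arrays of low red cell score, chosen after seeing the data, they were 0.076 and -0.034. Maoa in paricalcitol minus vehicle passed with arrays centred on their median (adjusted p = 0.0147), dimmer genes left out (0.0489) and without those 4 arrays (0.046), Pkia in the combination minus baseline with the red cell covariate (0.0313), and Rgs5 in vehicle minus baseline with array weights (0.041), only the groups compared (0.0498) and the red cell covariate (0.0333); the cause was not tested. With replicate number as a block (replicate block), 0 members passed, Adcy6 in the combination minus paricalcitol was -0.23 (adjusted p = 0.609) and Adra1b in the combination minus enalapril 0.41 (0.721), and it changed no call. With dimmer genes left out there was no value for Adrb1, Adra1a and Adra1d. Adra1d was at the floor on every array, Adrb1 on 4 and Adra1a on 3, and there was a small number of arrays per group. Over all genes the number that passed ran from 0 to 160 in vehicle minus baseline (12 as reported), 0 to 71 in paricalcitol minus vehicle (2), 0 to 29 in paricalcitol minus baseline (4), 0 to 19 in enalapril minus baseline (2), 1 to 70 in the combination minus baseline (23) and 0 to 6 at most in the other 5 comparisons (0 or 1).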
